A study of Homo sapiens with 9 samples.

Results

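The hepatocyte transcription factor genes HNF4A, FOXA1, FOXA2, FOXA3, CEBPA, CEBPB, ONECUT1 and NR5A2 were followed across 9 Affymetrix gene arrays of Hep3B, an established human hepatocellular carcinoma line. The genes were chosen by name, as probe sets whose annotated symbol is one of these 8, and 7 of the 8 had a probe set, 1 each, among 18417 genes measured in all. HNF4A was not analysed here. The arrays formed 3 groups of 3. The first group was untreated and not transfected, the second received a nonsense siRNA, and the third an siRNA against YAP. All cells were of this 1 line and grew for 24 h in full medium; transfection used Oligofectamine and was followed by a further 24 h of culture. In comparisons with untreated cells, the siRNA, the transfection reagent and any added culture time cannot be told apart. Whether the YAP siRNA was 1 sequence or a pool is not given in the sources used here.

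These proteins bind DNA and switch on the genes that mark a liver cell. FOXA proteins are forkhead factors that can open closed chromatin and act early in liver development. C/EBP alpha and beta are leucine zipper factors, the first tied to mature, resting hepatocytes and the second to the acute phase and to regeneration. ONECUT1 (HNF6) is a cut-homeodomain factor of liver, bile duct and pancreas, NR5A2 (LRH-1) is an orphan nuclear receptor of bile acid and cholesterol metabolism, and HNF4A is a nuclear receptor central to the same network. YAP, encoded by YAP1, is the coactivator that the Hippo pathway restrains, and it binds DNA through TEAD factors. A small interfering RNA (siRNA) lowers the transcript that it matches.

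The knockdown was present on the arrays: YAP1 fell by 1.18 (log2) with YAP siRNA relative to nonsense siRNA (adjusted p = 4.34e-09). All 10 hepatocyte lineage markers lay above the median signal over genes of 7.31, against 2 of 11 stromal and endothelial markers and 2 of 7 leukocyte markers. ALB, the albumin gene, read 11.43 to 11.64 and AFP, the alpha-fetoprotein gene, 12.28 to 12.51 over the 9 arrays. The sample titles begin with HUH while every other label names Hep3B, which was followed; RB1, a gene known to be defective in Hep3B, read 8.62 to 8.93, and an array signal of this kind does not settle the line. Some arrays stood apart from their own group in a partly shared way. Across genes, deviations from the group mean correlated at 0.47 between YAP siRNA replicate 3 and nonsense siRNA replicate 2. Between YAP siRNA replicate 3 and untreated replicate 3 the value was 0.34. The remaining pair, untreated replicate 3 with nonsense siRNA replicate 2, gave 0.07, so these 3 arrays did not share 1 deviation. Any other pair from different groups reached 0.25 at most. For the members, a value without all 3 of these arrays is given where it changed a call. The passing calls on genes of the other lists named here also passed without them. The 3 arrays were picked by their deviations in these same data, and leaving them out raised the number of genes called. Counts went from 834 to 1287 between YAP siRNA and nonsense siRNA and from 113 to 2319 between nonsense siRNA and untreated cells. Between YAP siRNA and untreated cells they went from 569 to 1560. Passing in that fit therefore adds no support to a call. Whether replicates were separate cultures is unstated, so p-values measure the spread between these samples, which may be technical. With bulk RNA, fewer cells with a transcript and less transcript per cell cannot be told apart.

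FOXA1 was the 1 member that passed in any comparison, at an adjusted p under 0.05 by limma over all 18417 genes, and it fell after YAP siRNA against nonsense siRNA. In that comparison 1 of 7 members passed, beside 4.53% of all genes (1.92% higher, 2.61% lower). FOXA1 read 8.37, 8.28 and 8.34 (log2 signal) on the 3 untreated arrays, 8.42, 8.56 and 8.36 on the nonsense siRNA arrays, and 8.25, 8.25 and 8.20 on the YAP siRNA arrays. The YAP siRNA arrays were the lowest 3 of the 9 and overlapped neither control group, a position below all 6 control arrays that 3.61% of genes held. Untreated and nonsense siRNA arrays overlapped.

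Group means of FOXA1 were 8.33 ± 0.05 (SD, n = 3) untreated, 8.45 ± 0.10 (SD, n = 3) with nonsense siRNA and 8.23 ± 0.03 (SD, n = 3) with YAP siRNA. Relative to nonsense siRNA, FOXA1 fell by 0.22 on the log2 scale (SE 0.0585, 95% interval -0.34 to -0.09, adjusted p = 0.0479), to 86.1% of that level. Against untreated cells the difference was -0.10 (95% interval -0.22 to 0.03, adjusted p = 0.448), and nonsense siRNA differed from untreated cells by 0.12 (95% interval -0.01 to 0.24, adjusted p = 0.276). In the order nonsense siRNA, untreated, YAP siRNA, neither pair of neighbours passed, and only the 2 ends did. Untreated and YAP siRNA arrays still did not overlap.

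The call on FOXA1 lay close to the threshold. Leaving out 1 array at a time ended it in 8 of 9 fits. The adjusted p was 0.0557, 0.0652 and 0.0562 without untreated replicate 1, 2 or 3, 0.120 and 0.126 without nonsense siRNA replicate 1 or 2, and 0.112, 0.114 and 0.146 without YAP siRNA replicate 1, 2 or 3. It passed without nonsense siRNA replicate 3 (adjusted p = 0.0417). Nonsense siRNA replicate 2 had the highest FOXA1 signal of the 9, and without the 3 arrays that stood apart the difference was -0.14 (adjusted p = 0.189), a change of size by over 1.5 times. The mean level of 192 small nucleolar and Cajal body RNAs, which ran from 6.98 to 7.05 on nonsense siRNA arrays and from 6.89 to 6.99 on YAP siRNA arrays, moved with this comparison; with it as a covariate FOXA1 differed by -0.22 (adjusted p = 0.139), and its part in the result was not tested further.

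**Figure D1:**
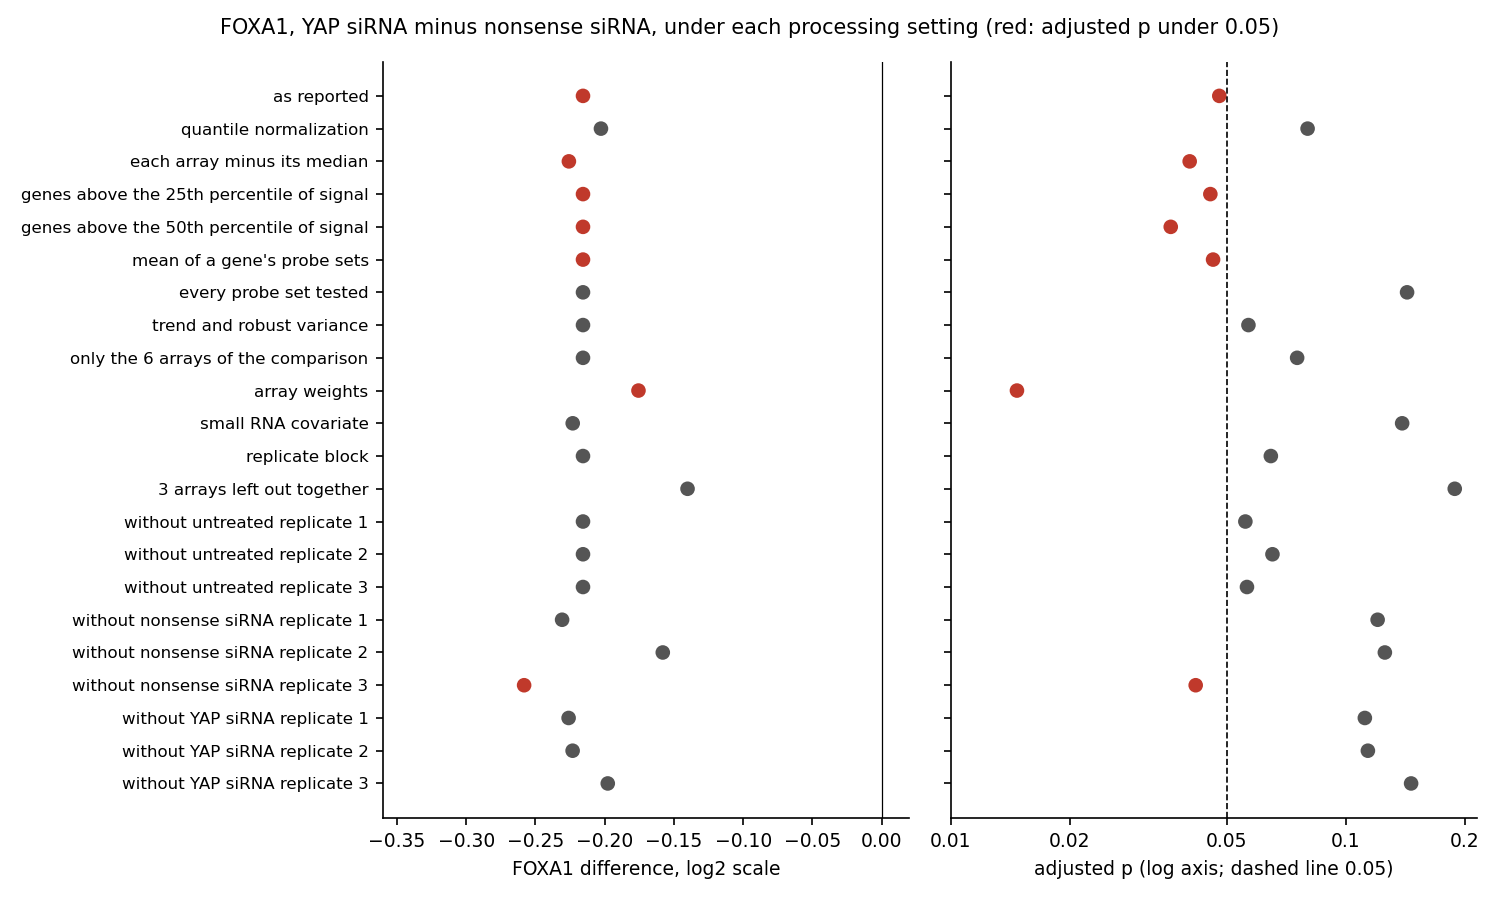
The FOXA1 difference between YAP siRNA and nonsense siRNA (left, log2 scale) and its adjusted p (right, log axis, dashed line at 0.05) as reported and under other processing settings or with arrays left out, red where it passed. The difference stayed negative under every setting plotted, from -0.26 to -0.14, while the adjusted p lay on both sides of 0.05.

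FOXA2 and FOXA3, the other forkhead members, did not pass in any comparison. FOXA2 read 8.32, 8.30 and 8.28 untreated, 8.02, 8.21 and 8.29 with nonsense siRNA, and 7.99, 8.10 and 8.15 with YAP siRNA. The 3 YAP siRNA arrays lay below the 3 untreated arrays, while the nonsense siRNA arrays spread over both. The FOXA2 difference between YAP siRNA and untreated cells was -0.22 (SE 0.0671, 95% interval -0.36 to -0.07, adjusted p = 0.110), as large as that of FOXA1 against nonsense siRNA. Against nonsense siRNA it was -0.09 (adjusted p = 0.630), and nonsense siRNA differed from untreated cells by -0.13 (adjusted p = 0.297). Leaving out 1 array moved the first of these to between -0.16 (without nonsense siRNA replicate 1) and -0.03 (without nonsense siRNA replicate 3), and the second to between -0.19 and -0.05 (without the same arrays in reverse order). Without the 3 arrays that stood apart FOXA2 passed between YAP siRNA and untreated cells, at -0.26 (adjusted p = 0.0491).

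FOXA3, a paralog with ties to glucose metabolism, read 8.10, 8.03 and 8.14 untreated, 7.94, 7.94 and 7.98 with nonsense siRNA, and 7.99, 8.08 and 7.96 with YAP siRNA. The nonsense siRNA arrays lay below the untreated ones, and the YAP siRNA arrays overlapped both groups. FOXA3 differed by -0.13 between nonsense siRNA and untreated cells (95% interval -0.25 to -0.02, adjusted p = 0.202), by 0.06 between YAP siRNA and nonsense siRNA (adjusted p = 0.719) and by -0.08 between YAP siRNA and untreated cells (adjusted p = 0.519). The FOXA genes thus took different orders: nonsense siRNA was the highest group for FOXA1, the middle one for FOXA2 and the lowest for FOXA3. Of the neighbouring pairs in these orders none passed.

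CEBPA, the C/EBP gene of mature hepatocytes, read 9.07, 8.88 and 8.99 untreated, 8.89, 8.88 and 8.84 with nonsense siRNA, and 8.76, 8.80 and 8.86 with YAP siRNA. The YAP siRNA arrays lay below the untreated ones, with a narrow gap, and overlapped those with nonsense siRNA. The CEBPA difference between YAP siRNA and untreated cells was -0.17 (SE 0.0573, 95% interval -0.30 to -0.05, adjusted p = 0.132). The steps from untreated to nonsense siRNA (-0.11, adjusted p = 0.304) and from nonsense siRNA to YAP siRNA (-0.07, adjusted p = 0.682) did not pass.

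CEBPB, the C/EBP gene of the acute phase, had a signal of 7.84, 7.53 and 7.87 untreated, 7.61, 7.64 and 7.59 with nonsense siRNA, and 7.69, 7.67 and 7.84 with YAP siRNA. Untreated replicate 2 was the lowest of the 9 arrays and the other 2 untreated arrays the highest, a spread of 0.34 within the group. YAP siRNA arrays lay above nonsense siRNA arrays without overlap, by a mean of 0.12 (95% interval -0.05 to 0.29, adjusted p = 0.533). CEBPB differed from untreated cells by -0.14 with nonsense siRNA (adjusted p = 0.341) and by -0.02 with YAP siRNA (adjusted p = 0.946); leaving out untreated replicate 2 took the first to -0.24 and leaving out untreated replicate 3 to -0.07, while the sign of the second turned under 1 other setting and in 4 of 9 fits without 1 array.

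ONECUT1, the factor of liver and bile duct, had its highest signal with nonsense siRNA. It read 8.47, 8.92 and 8.85 untreated, 8.98, 9.05 and 8.95 with nonsense siRNA, and 8.74, 8.63 and 8.84 with YAP siRNA. All 3 nonsense siRNA arrays lay above the other 6, a position that 2.95% of genes held, and untreated replicate 1 was the lowest of the 9. Untreated and YAP siRNA arrays overlapped.

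The ONECUT1 difference between YAP siRNA and nonsense siRNA, -0.26 (SE 0.0919, 95% interval -0.45 to -0.06, adjusted p = 0.156), was larger than that of FOXA1 but came with a wider error. It did not pass over all 9 arrays. Without untreated replicate 1, which lies outside the comparison but widens the shared estimate of the spread, it passed (adjusted p = 0.0290), as it did with only the 6 arrays of the comparison (adjusted p = 0.042). Nonsense siRNA differed from untreated cells by 0.25 (95% interval 0.05 to 0.44, adjusted p = 0.178), and YAP siRNA from untreated cells by -0.01 (95% interval -0.21 to 0.18, adjusted p = 0.969). Without untreated replicate 1 the difference between nonsense siRNA and untreated cells was 0.11 (adjusted p = 0.425), less than the reported value by over 1.5 times. The differences of YAP siRNA and of untreated cells from nonsense siRNA share the nonsense siRNA arrays and are not independent.

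NR5A2, the nuclear receptor of bile acid synthesis, was higher on every siRNA array than on every untreated array, though no comparison passed. It read 9.30, 9.34 and 9.29 untreated, 9.52, 9.43 and 9.60 with nonsense siRNA, and 9.39, 9.49 and 9.39 with YAP siRNA. Of all genes 3.01% lay higher on all 6 siRNA arrays than on all 3 untreated ones. The difference between nonsense siRNA and untreated cells was 0.21 (SE 0.0572, 95% interval 0.08 to 0.33, adjusted p = 0.102). YAP siRNA differed from untreated cells by 0.11 (95% interval -0.01 to 0.23, adjusted p = 0.370) and from nonsense siRNA by -0.09 (95% interval -0.22 to 0.03, adjusted p = 0.487). The first of these passed without nonsense siRNA replicate 2 (0.25, adjusted p = 0.0209) and without the 3 arrays that stood apart (0.24, adjusted p = 0.020).

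**Figure D2:**
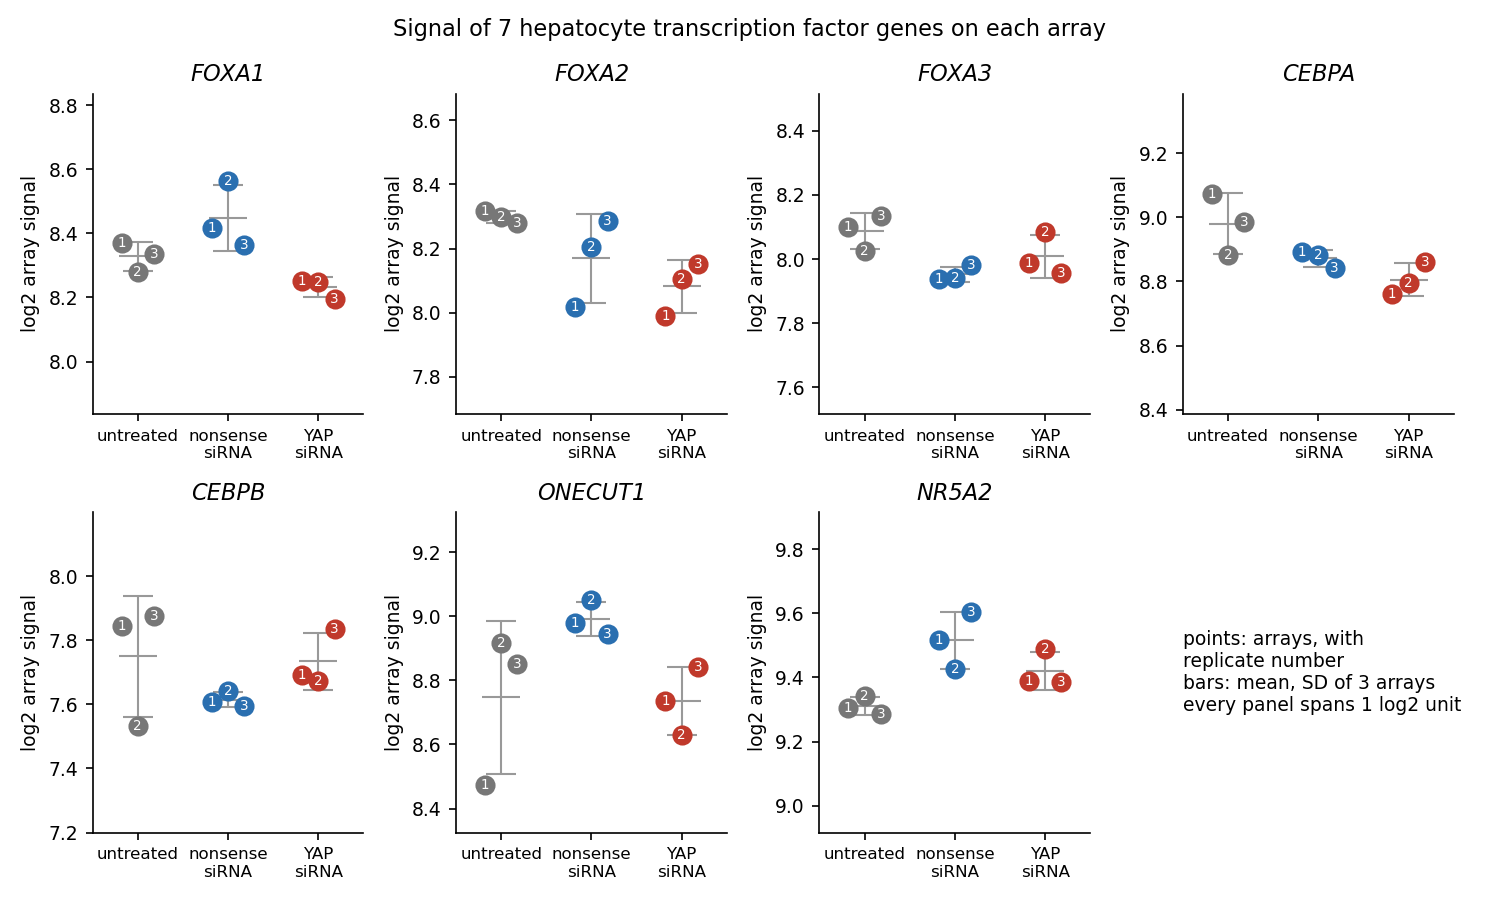
Log2 array signal of each measured hepatocyte factor gene (vertical axis, 1 log2 unit per panel) on the 3 untreated, 3 nonsense siRNA and 3 YAP siRNA arrays; points are arrays with their replicate number, bars the mean and SD of 3 arrays. YAP siRNA arrays were the lowest for FOXA1, nonsense siRNA arrays the highest for ONECUT1, and untreated arrays the lowest for NR5A2.

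Read together, the 7 genes gave few calls and small differences. Between YAP siRNA and nonsense siRNA 1 fell and 0 rose, 5 had a negative and 2 a positive difference, and the median was -0.09 beside 0.01 over all genes. Between nonsense siRNA and untreated cells 0 of 7 passed by limma (0.614% of all genes passed, 0.337% higher and 0.277% lower), 4 were negative and 3 positive, and the median was -0.11 beside -0.02 over all genes. Between YAP siRNA and untreated cells 0 of 7 passed by limma (3.09% of all genes, 1.63% higher and 1.46% lower), 6 were negative and 1 positive, and the median was -0.08 beside -0.01. At an unadjusted p under 0.05 the 3 comparisons counted 2, 3 and 2 members, where 15.8%, 19.5% and 15.8% of all genes did so.

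Groups of arrays did not overlap for 3 members between YAP siRNA and nonsense siRNA (FOXA1 and ONECUT1 lower, CEBPB higher; 20.2% of all genes did not overlap, 8.71% lower and 11.5% higher). They did not overlap for 3 between nonsense siRNA and untreated cells (ONECUT1 and NR5A2 higher, FOXA3 lower; 22.7% of all genes, 8.9% higher and 13.8% lower), and for 4 between YAP siRNA and untreated cells (FOXA1, FOXA2 and CEBPA lower, NR5A2 higher; 20.5% of all genes, 10.3% lower and 10.2% higher). The comparisons share arrays, so these counts are not independent of each other. Leaving out 1 array moved many of the smaller differences by over 1.5 times; it turned the sign only of CEBPB and ONECUT1 between YAP siRNA and untreated cells. Each 95% interval is for a single gene and is not adjusted for the number of genes. Some therefore exclude 0 where the adjusted p does not pass, and together they give no joint bound. Across the 7 genes the farthest bound was 0.45 in size on the log2 scale between YAP siRNA and nonsense siRNA. It was 0.44 between nonsense siRNA and untreated cells, and 0.36 between YAP siRNA and untreated cells. For scale, the median size of a called difference over all genes was 0.29, 0.32 and 0.30, and the smallest called was 0.18, 0.23 and 0.19.

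**Figure D3:**
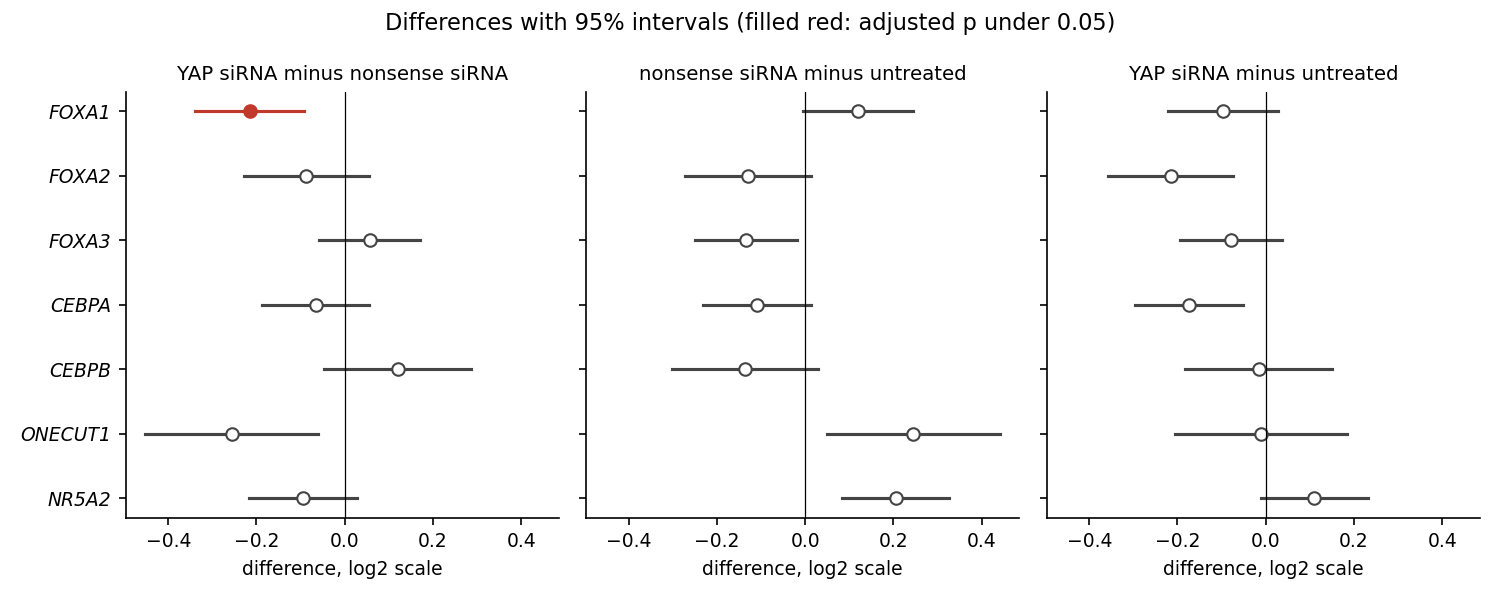
Difference of each measured hepatocyte factor gene (horizontal axis, log2 scale) with its 95% interval in the 3 comparisons, filled red where the adjusted p was under 0.05. FOXA1 between YAP siRNA and nonsense siRNA (-0.22) is the 1 filled point, and the farthest bound of any interval is 0.45 in size.

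Promoter windows of the 3 genes for which 1 group lay apart from the other 6 arrays are shown, to let their sequence be read beside their values. RefSeq windows (GRCh38.p14, 250 bases before to 50 after a start site) matched 6 of the 7 measured genes, with 8 windows in all. Each is written 5′ to 3′ along the gene's strand, and capitals mark a match to 1 of 6 short motifs searched on both strands. FOXA1 is at chr14:37595200-37595499, minus strand. ONECUT1 is at chr15:52790287-52790586, minus strand. NR5A2 is the second of its 2 start sites, at chr1:200042341-200042640, plus strand.
FOXA1: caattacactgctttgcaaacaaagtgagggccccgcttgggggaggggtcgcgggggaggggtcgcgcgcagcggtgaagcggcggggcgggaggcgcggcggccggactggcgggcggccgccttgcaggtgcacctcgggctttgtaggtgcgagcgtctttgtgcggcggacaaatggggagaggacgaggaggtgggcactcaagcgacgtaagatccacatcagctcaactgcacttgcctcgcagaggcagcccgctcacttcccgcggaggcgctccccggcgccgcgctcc
ONECUT1: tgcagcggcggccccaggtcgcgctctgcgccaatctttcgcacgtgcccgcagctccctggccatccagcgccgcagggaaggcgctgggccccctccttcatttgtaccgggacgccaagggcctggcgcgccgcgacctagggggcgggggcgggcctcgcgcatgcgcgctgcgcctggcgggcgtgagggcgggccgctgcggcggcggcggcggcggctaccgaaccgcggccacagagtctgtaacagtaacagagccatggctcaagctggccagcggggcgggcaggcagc
NR5A2: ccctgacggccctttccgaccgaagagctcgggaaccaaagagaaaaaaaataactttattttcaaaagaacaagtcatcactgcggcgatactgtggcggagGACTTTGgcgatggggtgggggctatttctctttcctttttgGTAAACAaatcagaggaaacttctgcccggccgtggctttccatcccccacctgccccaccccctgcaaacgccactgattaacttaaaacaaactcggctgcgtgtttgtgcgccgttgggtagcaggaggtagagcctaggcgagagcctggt

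The TEAD motif GGAATG was in 0 of the 8 windows, and 14% of all 35116 windows of this length hold it. In the NR5A2 window the capitals mark the HNF4A motif CAAAGTC, at bases -147 to -141 from the start and on the opposite strand, and the FOXA motif TGTTTAC, at bases -105 to -99 and also on the opposite strand. These 2 motifs were in 1 of the 8 windows each and in 3.37% and 3.42% of all windows. The motifs TTGCNNAA (C/EBP), ATTGATT (ONECUT1) and AAGGTCA (NR5A2) were in 0 of the 8, beside 10.5%, 2.18% and 3.92% of all windows. No searched motif overlapped another in these windows, a match is only a match of letters, and its absence says only that the letters are not in this window. The FOXA1 and ONECUT1 windows held 34 and 39 CpG dinucleotides, above the median of 14 over all windows, as did 7 of the 8; the other NR5A2 window, at its first start site, held 0.

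Genes whose signal ran most like that of each member were taken as the 3 highest of 9208 brighter genes by Pearson's r over the 9 arrays. Values this high are partly a product of choosing the extremes of so many, and the arrays share group and array effects. The group differences of these genes follow in part from that choice, so a call on 1 of them is not independent of its member. For FOXA1 they were INPP4A (r = 0.96), ZNF800 (0.95) and PRRC2B (0.94), and PRRC2B, at -0.20 between YAP siRNA and nonsense siRNA, was the 1 of these to pass there (adjusted p = 0.0362). For FOXA2 they were CARHSP1 (0.93), CDAN1 (0.93) and MYO1C (0.92), and for FOXA3 AP4B1 (0.93), FKBP8 (0.91) and AKT1S1 (0.90). For CEBPA they were OTUB1 (0.96), HDAC7 (0.96) and CTDNEP1 (0.96), of which HDAC7 differed by -0.26 between YAP siRNA and untreated cells (adjusted p = 0.0191). For CEBPB they were TICAM1 (0.95), PPP1R37 (0.95) and HID1 (0.94), for ONECUT1 HNRNPM (0.94), RAPGEF6 (0.93) and DCAF1 (0.90), and for NR5A2 NIFK (0.98), PSPC1 (0.96) and STK17B (0.96).

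Of the other liver transcription factors, 24 of 29 had a probe set, and calls went in both directions. Between YAP siRNA and nonsense siRNA 2 rose and 1 fell, where 4.53% of all genes passed; 12 differences were positive and 12 negative, with a median of -0.01. Whether their share of calls differed from that of the 7 members was not tested. HHEX, a homeobox gene of early liver growth, read 10.11, 10.04 and 10.18 untreated, 10.27, 10.24 and 10.34 with nonsense siRNA, and 10.03, 9.94 and 9.99 with YAP siRNA. HHEX was lowest on the YAP siRNA arrays, as FOXA1 was, and fell by 0.30 against nonsense siRNA (SE 0.0552, adjusted p = 0.00440), with an adjusted p of at most 0.0288 in every fit without 1 array. Against untreated cells HHEX differed by -0.12 (adjusted p = 0.284).

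HLF, a clock-output factor of the PAR leucine zipper family, read 7.36, 7.34 and 7.27 untreated, 7.12, 7.01 and 7.10 with nonsense siRNA, and 7.35, 7.35 and 7.39 with YAP siRNA. HLF was low on the nonsense siRNA arrays only. It rose by 0.28 with YAP siRNA against nonsense siRNA (adjusted p = 0.00437), was lower by a difference of -0.25 with nonsense siRNA than in untreated cells (adjusted p = 0.0478), and differed by 0.04 between YAP siRNA and untreated cells (adjusted p = 0.766). The second of these calls did not hold in 7 of 9 fits lacking an array (adjusted p up to 0.206, without nonsense siRNA replicate 1).

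CREB3L3, a liver factor of the endoplasmic reticulum that acts on triglyceride genes, read 7.68, 7.64 and 7.59 untreated, 7.62, 7.79 and 7.55 with nonsense siRNA, and 7.83, 8.01 and 7.88 with YAP siRNA. CREB3L3 was highest on the YAP siRNA arrays and rose by 0.25 against nonsense siRNA (adjusted p = 0.0396) and by 0.27 against untreated cells (adjusted p = 0.0334). Neither call held in 6 of 9 fits lacking an array (adjusted p up to 0.187, without nonsense siRNA replicate 3, and 0.198, without YAP siRNA replicate 2). Without the 3 arrays that stood apart CREB3L3 differed by 0.33 (adjusted p = 0.00566) and 0.27 (adjusted p = 0.0220). Between nonsense siRNA and untreated cells 1 of the 24 passed, HLF, beside 0.614% of all genes. Between YAP siRNA and untreated cells 1 passed, CREB3L3, beside 3.09% of all genes. HNF4G, the paralog of HNF4A, which was singled out after its values were seen, differed by -0.05, 0.15 and 0.10 in the 3 comparisons and did not pass.

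Of 46 genes listed here as targets of the members, 43 were measured, and between YAP siRNA and nonsense siRNA 2 rose and 0 fell. That is close to the 4.53% of all genes that passed. Differences were positive for 25 and negative for 18, with a median of 0.01, the same as over all genes. None of 11 FOXA targets, 18 C/EBP targets, 11 NR5A2 targets or 6 ONECUT1 targets passed there by limma, and their medians were -0.01, 0.01, -0.01 and 0.00. Both calls were among the 20 HNF4A targets, whose median was 0.03, and HNF4A itself was not analysed here. The lists share members, and 19 of the 43 had a mean signal above the median over genes.

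MTTP, which loads lipid onto apolipoprotein B and is listed under HNF4A, read 9.63, 9.67 and 9.67 untreated, 9.72, 9.77 and 9.63 with nonsense siRNA, and 10.02, 10.10 and 9.93 with YAP siRNA. MTTP lay higher on the YAP siRNA arrays than on all 6 others. It rose by 0.31 against nonsense siRNA (SE 0.0576, adjusted p = 0.00454) and by 0.36 against untreated cells (adjusted p = 0.00206), and both calls held in every fit without 1 array. CYP27A1, a sterol hydroxylase of bile acid synthesis, rose by 0.23 against nonsense siRNA (adjusted p = 0.0317) and differed by 0.16 from untreated cells (adjusted p = 0.172).

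Against untreated cells 3 of the 43 targets rose with YAP siRNA and 0 fell, where 1.63% of all genes rose and 1.46% fell. Over the list 20 differences were positive and 23 negative, with a median of -0.01. Beside MTTP these were AGT, the angiotensinogen gene, which rose by 0.22 (adjusted p = 0.0380), and CPS1, the first enzyme of the urea cycle, which rose by 0.23 (adjusted p = 0.0365). AGT is listed under HNF4A and C/EBP, CPS1 under FOXA and C/EBP. Of the 43, 0 passed by limma between nonsense siRNA and untreated cells, where 0.614% of all genes did. Leaving out 1 array lost the call on CYP27A1 in 4 of 9 fits (adjusted p up to 0.143, without YAP siRNA replicate 2), on AGT in 5 (0.201, without YAP siRNA replicate 1) and on CPS1 in 6 (0.180, without YAP siRNA replicate 2).

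Among 11 coregulators measured of 14, PPARGC1A and TLE1 passed between YAP siRNA and nonsense siRNA, where 4.53% of all genes did. Between YAP siRNA and untreated cells PPARGC1A alone passed, beside 3.09% of all genes. PPARGC1A encodes PGC-1 alpha, a coactivator of nuclear receptors in fasting liver, and read 6.78, 6.81 and 6.78 untreated, 6.88, 6.87 and 6.81 with nonsense siRNA, and 7.05, 7.25 and 7.03 with YAP siRNA. It was highest on the 3 YAP siRNA arrays and rose by 0.26 against nonsense siRNA (adjusted p = 0.0214) and by 0.32 against untreated cells (adjusted p = 0.00739). The mean signal of PPARGC1A, 6.92, is below the median over genes, as are those of HLF (7.25), CYP27A1 (7.27) and CPS1 (6.80). TLE1, a Groucho-family corepressor that FOXA proteins can recruit, fell by 0.21 against nonsense siRNA (adjusted p = 0.0269) and differed by -0.13 from untreated cells (adjusted p = 0.214). Without 1 array the PPARGC1A call against nonsense siRNA was lost in 3 of 9 fits (adjusted p up to 0.110, without YAP siRNA replicate 2) and that of TLE1 in 4 (0.156, without nonsense siRNA replicate 1).

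**Figure D4:**
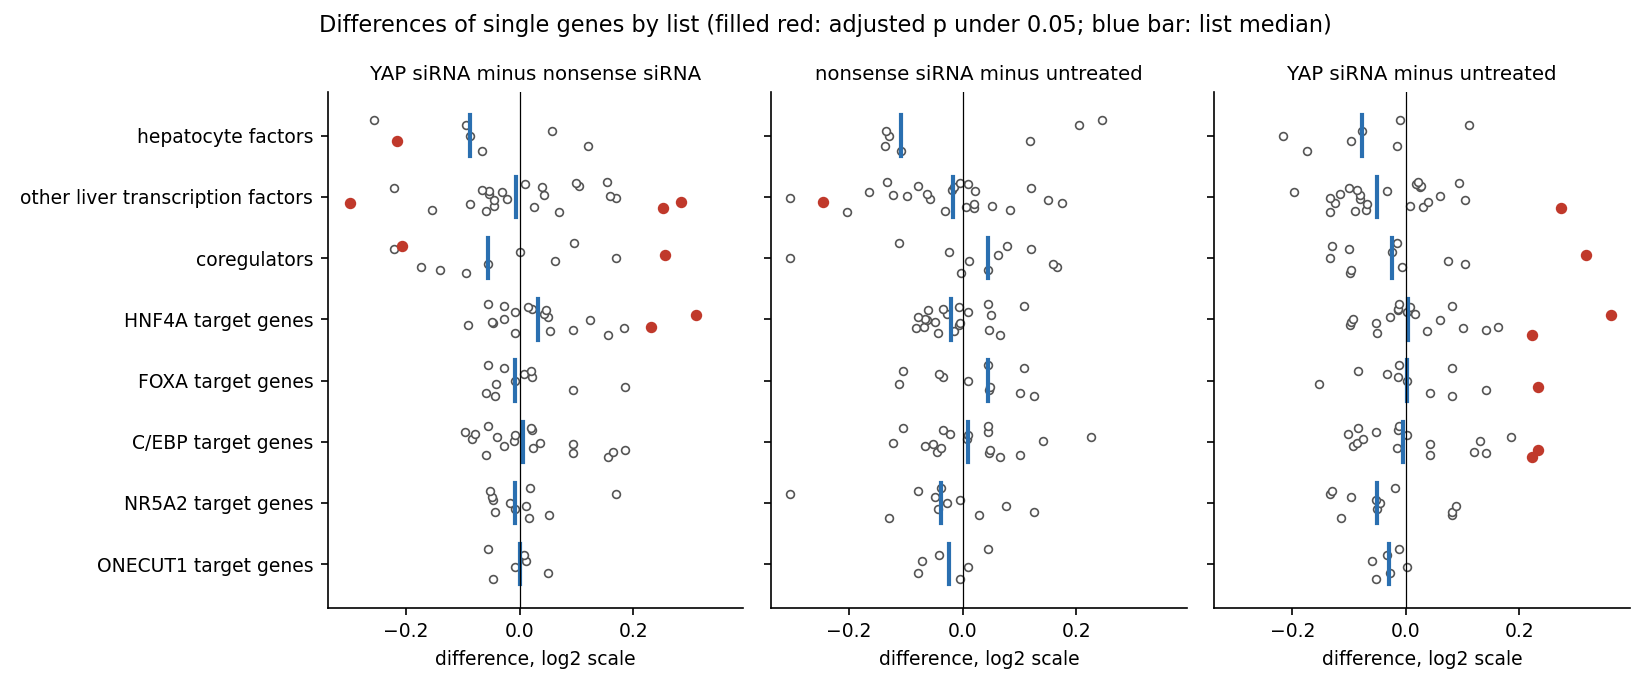
Differences of single genes (horizontal axis, log2 scale) for the measured hepatocyte factors, other liver transcription factors, coregulators and target genes in the 3 comparisons; filled red points had an adjusted p under 0.05 and blue bars are list medians. Most points lie within 0.2 of 0, and red points lie on both sides among factors and coregulators but only to the right among targets.

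Hepatocyte lineage markers and markers of other cell types were set beside these values. Between YAP siRNA and nonsense siRNA 4 of 10 hepatocyte lineage markers had a positive and 6 a negative difference, with a median of -0.02, and 2 passed beside 4.53% of all genes. Of these AHSG, a secreted plasma protein gene, rose by 0.29 (adjusted p = 0.0162) and HPX, the hemopexin gene, by 0.25 (adjusted p = 0.0296), and 0 fell. In the order untreated, nonsense siRNA, YAP siRNA, group means were 8.72, 8.68 and 8.97 for AHSG and 8.96, 8.84 and 9.09 for HPX. Between YAP siRNA and untreated cells 0 of the 10 passed by limma, beside 3.09% of all genes. ALB differed by -0.06 (adjusted p = 0.746) and AFP by -0.04 (adjusted p = 0.812). Of 9 biliary and progenitor markers 5 had a positive and 4 a negative difference, with a median of 0.02. The 1 that passed was CD24, a surface protein of liver progenitors, which fell by 0.41 (adjusted p = 0.0411), with overlapping arrays. Without the 3 arrays that stood apart the CD24 difference was -0.49 (adjusted p = 0.000798), and without YAP siRNA replicate 3 alone the adjusted p was 0.166. Each of these calls was lost in some fits without 1 array: AHSG in 3 of 9 (adjusted p up to 0.0904, without YAP siRNA replicate 1), HPX in 3 (0.180, without nonsense siRNA replicate 1) and CD24 in 6 (0.213, also without nonsense siRNA replicate 1).

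Of 11 stromal and endothelial markers 1 passed in the same comparison, beside 4.53% of all genes. COL1A2, a collagen chain gene, rose by 0.43 (adjusted p = 0.000538). Its group means were 8.37 untreated, 8.16 with nonsense siRNA and 8.58 with YAP siRNA. Between YAP siRNA and untreated cells 0 of the 11 passed by limma, where 3.09% of all genes did. The mean signal of that list ran from 6.92 to 6.97 on untreated, 6.85 to 6.89 on nonsense siRNA and 6.90 to 6.94 on YAP siRNA arrays. Of 7 leukocyte markers 0 passed by limma in any comparison, and their mean signal ran from 7.11 to 7.18, 7.09 to 7.11 and 7.08 to 7.17. The mean over the 7 hepatocyte factors was 8.47 to 8.54 untreated, 8.48 to 8.53 with nonsense siRNA and 8.40 to 8.46 with YAP siRNA. The part of other cell types in the values of the factors was not tested.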

How the data were processed

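The authors deposited 1 column of log2 signal per array. That scale was read from the range of the values. How background and scaling were handled is not given in the sources used here. Array medians differed by 0.05 at most, and no further scaling was applied. Of 33297 probe sets, the supplied annotation listed 21214, 19460 with 1 gene; these gave 18417 genes, and the brightest probe set stood for a gene with several. Each measured member had 1 probe set.

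Group means of all genes on all 9 arrays were compared with limma 3.58.1 (R 4.3.3; moderated by eBayes), in 3 pairwise differences, each two-sided. Adjustment was by Benjamini-Hochberg across the 18417 genes, with 0.05 as the threshold. Simulated data with known shifts were put through the same fit. Shifts of size 0.2 were recovered in 12% of cases between YAP siRNA and nonsense siRNA. The share was 16% between nonsense siRNA and untreated cells, and 14% between YAP siRNA and untreated cells. At size 0.3 the shares were 64%, 54% and 58% in that order, and at 0.5 they were 90%, 88% and 90%. Most simulated shifts of 0.2 were thus missed. The number of shifted genes and the shared array deviations of the data were not matched, so these shares need not hold there. A gene that did not pass is not shown to be unchanged. Figures used Python 3.11.15, matplotlib 3.10.9 and pandas 2.3.3.

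Members, gene lists and tests were chosen with earlier results of these data known. Named were all members, up to 4 genes per list and comparison that passed, YAP1, RB1, ALB and AFP, and the 3 genes most like each member. Listed genes without a probe set were not analysed here. The alternatives were other scalings, filters on dim genes, other uses of probe sets, another variance model, fewer arrays, array weights, a small RNA covariate and a replicate block. Replicate numbers were not used as pairs in the reported fit. Deviations of same-numbered arrays correlated from -0.34 to 0.34, which does not settle whether those samples were handled together. The number of arrays limits the precision.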

Additional observations from a re-analysis of the deposited data

How the results depend on the processing

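Of 21 member results (7 genes in 3 comparisons), each under 22 settings, 428 of 462 values kept direction and side of the threshold. Results that did not pass as reported kept their side by staying above the threshold. The 1 result that passed, FOXA1, lost its call in 8 of 9 fits without 1 array and under 8 of 13 other settings. The member count between YAP siRNA and nonsense siRNA, 1 as reported, was 0 with quantile normalization, every probe set tested, a trend and robust variance, an adjusted p under 0.01, the small RNA covariate, the replicate block and 3 arrays left out together, and 2 with array weights. It ranged from 0 to 1 without 1 array. With only the 6 arrays of the comparison, or without untreated replicate 1, the 1 gene was ONECUT1, not FOXA1. Under the replicate block FOXA1, the 1 member call as reported, had an adjusted p of 0.0646.

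Between nonsense siRNA and untreated cells the member count, 0 as reported, was 1 with array weights and with 3 arrays left out together, and 0 to 1 without 1 array. Between YAP siRNA and untreated cells it was 2 with array weights (FOXA2 and CEBPA), 1 with 3 arrays left out together, and 0 in every fit without 1 array. There CEBPB, at -0.02, was 0.0064 with array weights and -0.12 to 0.045 without 1 array, and ONECUT1, at -0.01, was 0.0037 with each array minus its median and -0.15 to 0.074 without 1 array.

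Over all genes, the count between YAP siRNA and nonsense siRNA (834) was 424 with every probe set tested, 396 at 0.01, 2404 with array weights, 451 with the covariate, 1287 with 3 arrays left out together and 426 to 1231 without 1 array. Between nonsense siRNA and untreated cells (113) it was 0, 11, 2620, 27 and 2319 in the same order, 67 with the 6 arrays of the comparison, 65 with the replicate block and 11 to 1470 without 1 array. Between YAP siRNA and untreated cells (569) it was 205, 250, 1759, 890, 1560 and 279 to 775. The causes were not tested. Most of the 21 member differences were smaller than the smallest difference called over all genes in the same comparison.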
